A study of Mus musculus with 3 samples.

Results

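Carriers that move amino acids and monocarboxylates across membranes were compared between embryoid bodies of a Dido mutant and wild-type embryoid bodies, as 74 genes read by 104 array probes. They are the genes that the array files name as members of the solute carrier families Slc1, Slc3, Slc6, Slc7, Slc16, Slc36, Slc38 and Slc43, out of 30121 genes named there. A test was possible for 57 of the 74, out of 19684 genes tested. The tested 57 had a probe that stood well above background on all 3 arrays in at least 1 genotype.

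Embryoid bodies are floating aggregates in which mouse embryonic stem cells differentiate. The mutant ones, genotype Dido3deltaCT+HADidoNT, had a Dido3 protein cut short at its C-terminal end together with overexpression of the N-terminal region that the Dido proteins share, which contains a PHD domain. The others were wild-type controls. Both were kept without LIF, a cytokine that maintains stem cells, for 10 days in low-attachment plates, and each genotype gave 3 biological replicates. The labels do not say from how many stem cell clones the mutant bodies came. Each array held the RNA of 1 mutant and 1 wild-type replicate in 2 colours, and values are given as log2 of the mutant over the wild-type signal unless called intensities. Errors are SD over n = 3 arrays.

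Amino acids cross the plasma membrane through carriers that divide the work by substrate and by cell surface. In absorptive epithelia such as kidney tubule, gut and yolk sac, heteromeric exchangers made of a heavy chain (Slc3) and a light chain (Slc7) take up cystine, basic and neutral amino acids and pass them on to the blood side. In the nervous system, sodium-coupled carriers of the Slc1 and Slc6 families clear glutamate, GABA, glycine, noradrenaline and serotonin, while Slc38 carriers move glutamine. The Slc16 family includes the proton-linked carriers of lactate and pyruvate as well as carriers of aromatic amino acids.

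The comparison found 3 carriers that passed the test over all genes, 2 higher and 1 lower in the mutant. They are the heavy chain gene Slc3a1, the sodium-coupled neutral amino acid carrier family gene Slc38a6 and the noradrenaline carrier gene Slc6a2. Of all genes tested, 1.26% were called higher and 0.386% lower, and counts of 2 and 1 among 57 carriers are too small to set the carriers apart from that background. The array probes that gave these calls, and the second kept probe of Slc38a6 that did not follow the first, are given in mm9 coordinates, as 60-base sequences written in lower case from the array design.
Slc3a1, chr17:85463142-85463201, plus strand: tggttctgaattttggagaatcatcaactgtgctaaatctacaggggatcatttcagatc
Slc38a6, called probe, chr12:74452745-74452804, plus strand: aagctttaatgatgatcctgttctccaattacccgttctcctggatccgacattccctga
Slc38a6, second probe, chr12:74413109-74413168, plus strand: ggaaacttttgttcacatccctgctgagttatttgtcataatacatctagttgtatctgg
Slc6a2, chr8:95525166-95525225, plus strand: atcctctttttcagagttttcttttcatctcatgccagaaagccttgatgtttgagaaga

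The 3 calls depended on the processing. None of them passed when the local background was not limited to 100 units, without a filter on dim probes or with the authors' deposited log ratios. None passed without replicate 1 or replicate 3 either, where limma gave adjusted p values of 0.217 and 0.131 for Slc3a1, 0.217 and 0.131 for Slc38a6 and 0.206 and 0.131 for Slc6a2. With a filter on both genotypes Slc3a1 was not tested, since its wild-type spot was well above background on 2 arrays. Each of the 3 kept its sign in the alternatives that gave it a value. The size also depended on the processing. Slc3a1 ran from 1.84 with the authors' deposited log ratios to 4.00 with the scanner's log ratio. For Slc6a2 the mean ran from -2.31 with no limit on local background to -4.84 with the scanner's log ratio.

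The arrays were not equally alike. The mutant RNA carried Cy3 on arrays 1 and 3 and Cy5 on array 2, so array 2 alone has the dyes exchanged and its replicate and its dye cannot be told apart. Over the 57 tested carriers the ratios correlated at 0.87 between arrays 1 and 3, at 0.64 between arrays 1 and 2 and at 0.61 between arrays 2 and 3. Over all genes these correlations were 0.794, 0.377 and 0.193. In 10 of the 57 carriers arrays 1 and 3 had one sign and array 2 the other. The altered gene itself, Dido1, was read by 4 kept probes that averaged 3.03, 2.35, -0.54 and -3.60, so no single direction describes it.

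Slc3a1 encodes rBAT, the heavy chain that pairs with the light chain Slc7a9 to form the apical cystine and basic amino acid exchanger of kidney and gut. Its log2 channel intensities were 10.03, 8.98 and 9.54 in mutant bodies on arrays 1, 2 and 3, against 6.94, 6.79 and 6.89 in wild-type bodies. All mutant values lay above all wild-type values, and the wild-type spot was well above background on 2 of the 3 arrays. The ratios were 3.09, 2.19 and 2.65, a mean of 2.64 ± 0.45 or 6.24-fold (limma, adjusted p = 0.0362). Slc7a9, its partner, read 3.54, 0.52 and 2.27, a mean of 2.11 ± 1.51 that did not pass (limma, adjusted p = 0.155). Its channel intensities were 13.38, 11.99 and 11.44 in mutant bodies and 9.84, 11.47 and 9.18 in wild-type bodies, and the lowest mutant value, on array 3, lay just below the highest wild-type value, on array 2. The other heavy chain gene, Slc3a2, which serves the light chains of most cell types, had a mean of -0.29 ± 0.26 (limma, adjusted p = 0.502).

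Among the light chains of Slc3a2, Slc7a8 and Slc7a7, known from the basolateral side of epithelia, had positive ratios on every array without passing. Slc7a8, a carrier of neutral amino acids, read 1.72, 1.08 and 1.90, a mean of 1.57 ± 0.43 or 2.96-fold (limma, adjusted p = 0.0568). Its channel intensities were 9.53, 8.99 and 9.02 in mutant bodies and 7.81, 7.90 and 7.12 in wild-type bodies, so the groups did not overlap. Slc7a7, the basic amino acid exchanger mutated in lysinuric protein intolerance in humans, read 0.95, 0.35 and 1.13 (mean 0.81 ± 0.41, limma, adjusted p = 0.163). The light chain of growing cells, Slc7a5, was at 0.24 ± 0.21 and its second probe at -0.16. Slc7a10, an exchanger of small neutral amino acids in brain, was at 0.027 ± 0.21. The other tested members of the Slc7 family, Slc7a1, Slc7a3, Slc7a4 and Slc7a6, had means between -0.23 and -0.075.

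**Figure D1:**
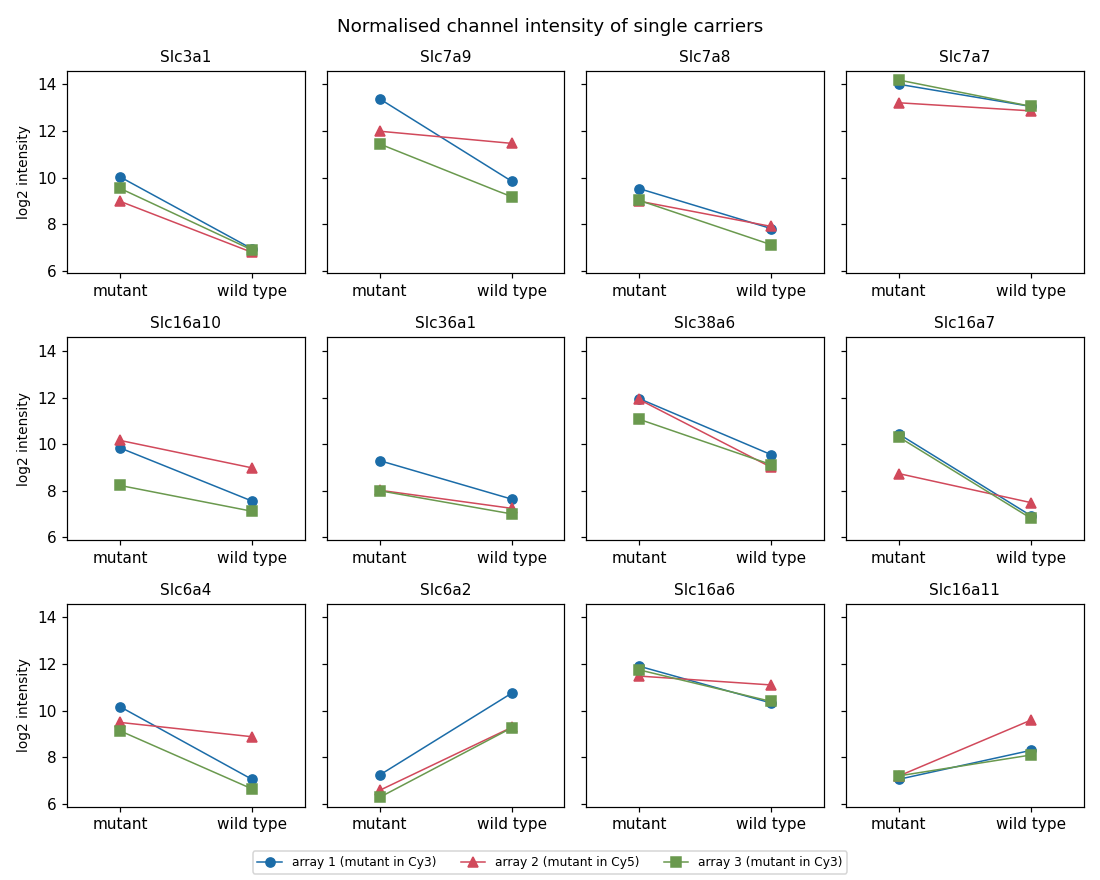
Normalised log2 channel intensity of 12 carriers on each array, with mutant bodies on the left and wild-type bodies on the right of each panel and a line joining the channels of 1 array. Mutant and wild-type points overlap for Slc7a9 and Slc16a10. For Slc6a2 and Slc16a11 all 3 mutant points lie below all wild-type points, and for the other carriers drawn all 3 lie above. The share of all genes without overlap was not counted. The 12 are a selection of the tested carriers, so their separation does not describe the carriers as a group. Array 2 has a flatter line than arrays 1 and 3 for all carriers drawn except Slc16a10, Slc38a6 and Slc16a11.

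Slc38a6, on chromosome 12, rose by its brightest kept probe. That probe had channel intensities of 11.95, 11.92 and 11.07 in mutant bodies and 9.55, 9.01 and 9.12 in wild-type bodies, with no overlap, and ratios of 2.41, 2.91 and 1.95 (mean 2.42 ± 0.48 or 5.35-fold, limma, adjusted p = 0.0419). The second kept probe, which starts 39636 bases upstream on the same strand, read -0.071, -0.52 and 0.046, a mean of -0.18 ± 0.30. With the mean of both probes in place of the brighter one the gene was at 1.12 and did not pass (limma, adjusted p = 0.0587). Which exon each probe lies in was not assigned here.

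In the Slc38 family 10 of 11 members were tested, Slc38a6 was the only call, and the median was -0.30. Slc38a9, the lysosomal carrier that reports arginine to mTORC1, was at 0.97 ± 0.40 by its brightest probe (limma, adjusted p = 0.119), while 2 further probes each averaged 0.087 and 0.093. Slc38a8 read -1.53, -0.081 and -2.93, a mean of -1.51 ± 1.43 (limma, adjusted p = 0.241). The glutamine carriers Slc38a1 and Slc38a3 averaged -0.54 ± 0.59 and -1.002 ± 0.96, and both were slightly positive on array 2 and negative on arrays 1 and 3 by their brightest probe. The other 2 kept probes of Slc38a1 were negative on all 3 arrays, with -0.64 and -0.91 on array 2. Slc38a2, the carrier induced by amino acid shortage, was positive on array 2 alone, at -1.35, 0.26 and -0.91.

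Slc6a2 fell in the mutant. Its channel intensities were 7.23, 6.58 and 6.28 in mutant bodies and 10.75, 9.28 and 9.26 in wild-type bodies, so every mutant value lay below every wild-type value. The ratios were -3.51, -2.70 and -2.98, a mean of -3.07 ± 0.41 or 8.37-fold lower (limma, adjusted p = 0.0357). The array with the dyes exchanged lay within 1 log2 unit of the other 2.

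The serotonin carrier gene Slc6a4 had the opposite sign. It read 3.12, 0.61 and 2.49, a mean of 2.08 ± 1.30 (limma, adjusted p = 0.127), with channel intensities of 10.17, 9.50 and 9.14 in mutant bodies and 7.05, 8.88 and 6.64 in wild-type bodies. The mutant values were all above the wild-type values, but the gap between the lowest mutant and the highest wild-type value was small. The GABA carriers Slc6a11 (-0.14 ± 0.18) and Slc6a13 (-0.34 ± 0.30), the glycine carrier Slc6a9 (-0.037 ± 0.39) and the neutral amino acid carrier of neurons Slc6a15 (-0.53 ± 0.52) did not pass. Slc6a17, a vesicle carrier, read 0.37, 0.78 and 0.32 (mean 0.49 ± 0.25) and its wild-type spot stood well above background on 1 array. The Slc6 family had 10 of 18 members tested and a median of -0.39.

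Carriers on chromosome X included Slc6a8 at -0.44 ± 0.93, Slc7a3 at -0.18 ± 1.25 and Slc38a5 at 0.49 ± 0.69, none of them called. Beside these, the chromosome Y genes Eif2s3y and Ddx3y were well above background on 0 arrays in mutant bodies and on 3 in wild-type bodies. A part of the sex chromosomes in the X-linked values was not tested.

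In the glutamate and neutral amino acid family Slc1, no member was called among 6 tested of 7, and the median was -0.027. Slc1a5, the glutamine exchanger of dividing cells, was at -0.69 ± 0.49 (limma, adjusted p = 0.240), and its second kept probe lay within 0.075 of it. Slc1a6 and Slc1a7, glutamate carriers of Purkinje cells and retina, were at 0.55 ± 0.94 and 0.39 ± 0.21. The glial glutamate carrier Slc1a3 was at -0.14 ± 0.61 and Slc1a1 at -0.12 ± 0.44, with arrays of both signs.

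**Figure D2:**
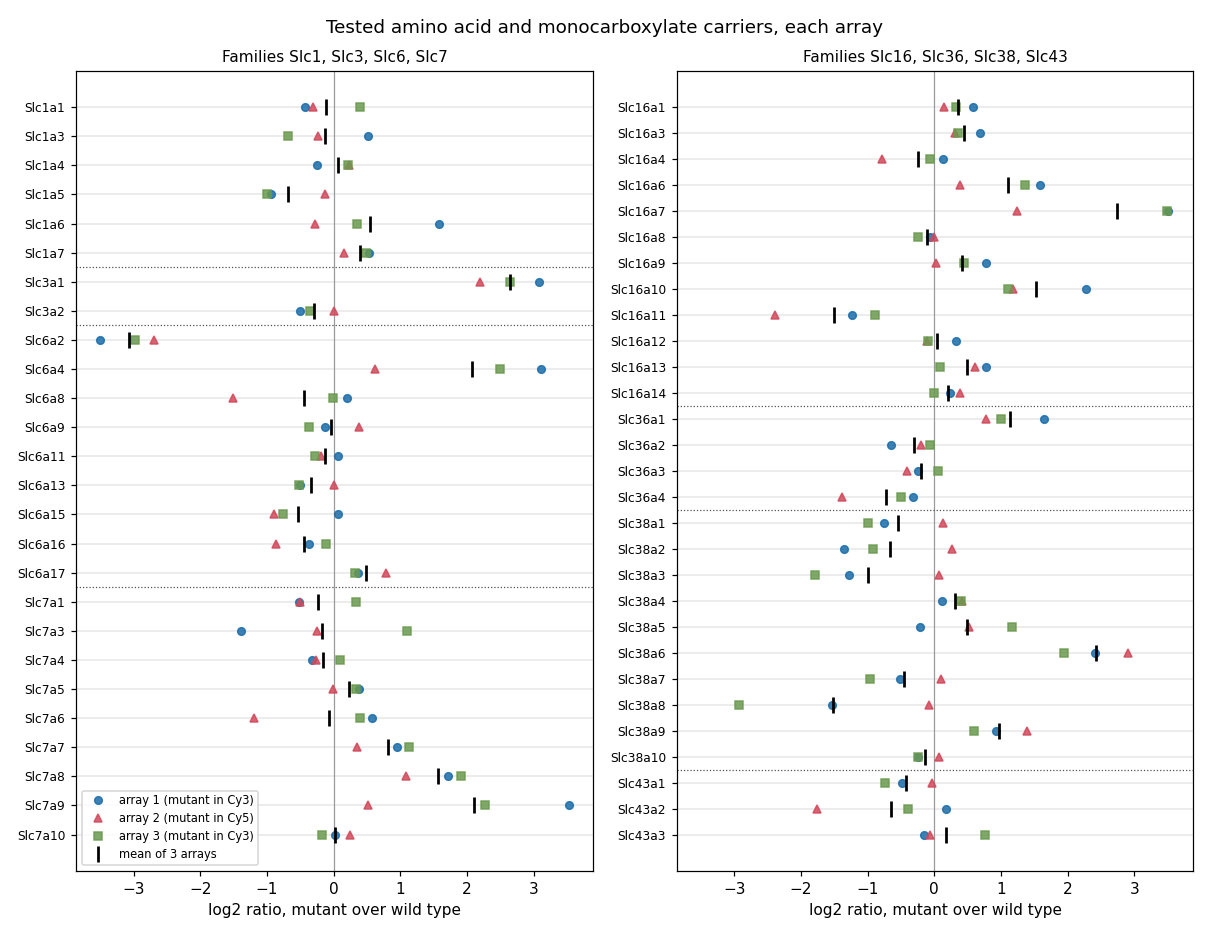
Log2 ratio of mutant over wild type for 55 of the 57 tested carriers, one row per gene and grouped by family, with 1 symbol per array and a bar at the mean. By the mean, most carriers lie within 1 log2 unit of 0. The bars of Slc3a1, Slc38a6 and Slc16a7 stand farthest to the right and that of Slc6a2 farthest to the left. The single point farthest to the right is Slc7a9 on array 1.

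In the monocarboxylate family Slc16, 13 of 14 members were tested and none was called, with a median of 0.35. Slc16a7, encoding MCT2, a high-affinity carrier of lactate and pyruvate found in neurons, had the largest mean of all carriers tested at 2.74 ± 1.30, with 3.50, 1.25 and 3.49 on the arrays (limma, adjusted p = 0.0766). Its channel intensities were 10.44, 8.74 and 10.31 in mutant bodies and 6.94, 7.49 and 6.82 in wild-type bodies, which did not overlap. The widespread lactate carriers Slc16a1 and Slc16a3 were at 0.35 ± 0.22 and 0.45 ± 0.20, positive on every array.

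Slc16a11 read -1.24, -2.40 and -0.89 (mean -1.51 ± 0.79, limma, adjusted p = 0.108), with intensities of 7.05, 7.19 and 7.20 in mutant bodies and 8.30, 9.59 and 8.10 in wild-type bodies. Every mutant value lay below every wild-type value, and the ratio was largest in size on array 2. Its neighbour on chromosome 11, Slc16a13, was at 0.49 ± 0.36. The ketone body carrier Slc16a6, whose role in export from liver is known from zebrafish, was at 1.11 ± 0.64 (limma, adjusted p = 0.144) by its brightest probe and 0.35 by the other.

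Slc16a10, the basolateral carrier of aromatic amino acids, read 2.28, 1.18 and 1.11 (mean 1.52 ± 0.66, limma, adjusted p = 0.0858). Its other kept probes averaged 0.33 and 0.41, and each was negative on array 2, so the size depended on the probe. In the proton-coupled family Slc36, Slc36a1, which exports amino acids from lysosomes and takes them up at the gut brush border, showed the same kind of gap, with 1.65, 0.78 and 0.99 for the brightest probe (mean 1.14 ± 0.46, limma, adjusted p = 0.0974) and a mean of 0.068 for the other. The other members of that family were negative on average, with Slc36a4 at -0.73 ± 0.57 (limma, adjusted p = 0.249), Slc36a2 at -0.30 and Slc36a3 at -0.20. In the Slc43 family of branched-chain and purine carriers the means were -0.42 ± 0.35 for Slc43a1, -0.66 ± 0.99 for Slc43a2 and 0.18 ± 0.51 for Slc43a3.

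Probe choice was compared for the 13 carriers with more than 1 kept probe, 29 probes in all. The median gap between the highest and the lowest probe of a gene was 0.40 log2 units. It was over 1 unit for Slc36a1 (1.07), Slc16a10 (1.19) and Slc38a6 (2.60), and under 0.11 units for Slc16a3, Slc6a9, Slc1a5, Slc38a1 and Slc16a9. In 3 genes the probes differed in sign, and in none of these did each sign have an unadjusted p under 0.05.

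**Figure D3:**
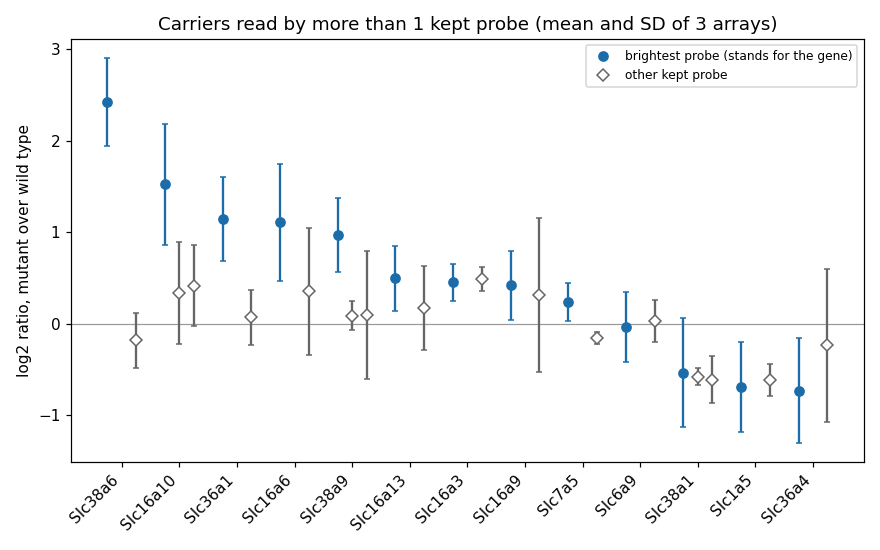
Mean log2 ratio of mutant over wild type, with SD over 3 arrays as bars, for every kept probe of the 13 carriers with more than 1. Filled circles are the brightest probe, which stands for the gene, and open diamonds are the others, which lie near 0 for Slc38a6, Slc36a1 and Slc38a9.

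Carriers known from epithelia and carriers known from neurons and their glia were set side by side as lists. Of 15 epithelial carriers 10 were tested, and their median was 0.98, with array medians of 1.30, 0.43 and 1.05. By the brightest probe, 6 of them had positive ratios on all 3 arrays, against 22.4% of all genes tested. They were Slc3a1, Slc7a9, Slc7a8, Slc16a10, Slc36a1 and Slc7a7. The same 6 had an unadjusted limma p under 0.05, against 12.1% of all genes in that direction, and 1 of the 6 was called. Slc16a8, the lactate carrier of retinal pigment epithelium, was lower on all 3 arrays at -0.11 ± 0.12, and Slc16a12, a creatine carrier, was at 0.042 ± 0.25, with Slc6a13 and Slc43a2 as given above. A carrier could enter the tested 10 through a high level in 1 genotype alone. With no filter on dim probes the 15 epithelial carriers had a median of 0.11. With a filter on both genotypes 8 were tested and the median was 0.98. Probe choice mattered as well, with a median of 0.68 for the mean of a gene's probes. Of the 6 named above, Slc16a10 and Slc36a1 had other kept probes, and each of those was negative on at least 1 array.

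The neuronal list had 13 of 18 members tested, a median of -0.037 and array medians of 0.070, 0.13 and -0.28. It held values of both extremes, Slc16a7 and Slc6a4 on the higher side and Slc6a2 on the lower side, and 7 of the 13 had arrays of both signs. With no filter its 18 members had a median of -0.066. The 34 tested carriers of neither list had a median of -0.17, and the median over all genes tested was -0.013. For all 57 tested carriers the median of the means was -0.11, although the median on each single array was positive, at 0.063, 0.004 and 0.054. The lists were not tested against each other.

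**Figure D4:**
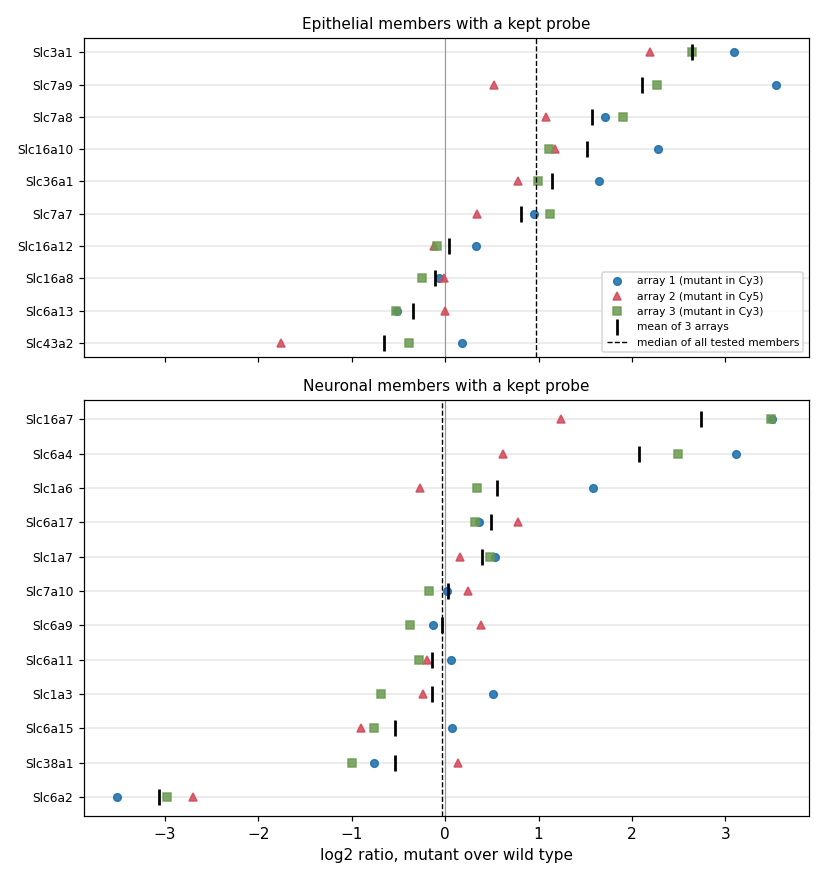
Log2 ratio of mutant over wild type on each array for the tested epithelial carriers (10, upper panel) and 12 of the 13 tested neuronal carriers (lower panel), with a bar at the mean of each gene and a dashed line at the median of means over all tested members of the list. The upper line stands at 0.98 and the lower at -0.037, and the lower panel holds both Slc16a7 and Slc6a2.

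Over all 57 tested carriers, 18 were higher and 12 lower on all 3 arrays, against 22.4% and 19.1% of all genes, and 27 had arrays of both signs. At least 2-fold differences on every array were found for 5 carriers in the higher direction (Slc3a1, Slc7a8, Slc16a7, Slc16a10 and Slc38a6) and for Slc6a2 in the lower, against 3.1% and 1.08% of all genes. An unadjusted p under 0.05 was found for 11 higher and 6 lower carriers, against 12.1% and 7.75% of all genes. Means within 0.5 log2 units of 0 were found for 33 of the 57. The other 17 carriers were not tested. Of these, Slc6a6, the taurine carrier, had an outlier spot on array 1 and read 1.32 and 1.47 on arrays 2 and 3. The remaining 16 were not well above background on all 3 arrays in either genotype. They included the cystine carrier Slc7a11, the glial glutamate carrier Slc1a2, the dopamine carrier Slc6a3 and the gut and kidney carriers Slc6a14, Slc6a18 and Slc6a19.

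Marker genes of cell types differed beside the carriers. Of 9 visceral endoderm markers, genes of the absorptive layer around the early embryo, 8 were higher on all 3 arrays, against 22.4% of all genes, and 2 were called, against 1.26%, with a median of 2.33. Their array medians were 3.33, 1.16 and 2.45. Summed over the list, normalised channel intensity ranged from 424587 to 845963 in mutant bodies and from 101428 to 202317 in wild-type bodies. Of 7 neuron markers 5 were lower on all 3 arrays, with a median of -1.90 and array medians of -2.23, -0.57 and -2.93, against 19.1% of all genes lower on all 3 arrays. In limma 0 of the 7 were called (0.386% of all genes) and 5 had an unadjusted p under 0.05 in that direction (7.75%). The neuron marker Gap43 was higher on all 3 arrays, at 0.54, 1.49 and 0.15, and Elavl3 had arrays of both signs. Of 6 neural progenitor markers 5 were lower on all 3 arrays, with a median of -2.56. Summed intensities of both neural lists overlapped between genotypes. They ranged from 5299 to 7708 in mutant and from 4076 to 24164.5 in wild-type bodies for the neuron markers. For the neural progenitor markers they ranged from 3066 to 5699 in mutant and from 5429 to 28622 in wild-type bodies. Markers of other cell types also differed. All 4 cardiac muscle markers were higher on all 3 arrays (median 3.02, 1 called), as were 3 of 4 endothelium markers (median 1.47, 2 called). The same held for 3 of 4 trophoblast markers (median 1.98, 3 called, with Gcm1 among them read by a low-complexity probe). The other trophoblast marker, Tfap2c, was lower on all 3 arrays, at -2.36, -1.99 and -0.64. The 4 pluripotent cell markers had a median of -0.97 with array medians of -2.28, -2.12 and 0.94, and the 3 tested glia markers a median of 0.008. No tested gene of these lists was below background on every array of a genotype, and the glia marker Gfap was too dim to test. In these mixed aggregates fewer cells of a type and less RNA per cell cannot be told apart, and the part of the markers in the carrier values was not tested.

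Genes that work with the carriers were compared through 5 lists. In limma 0 of their 35 tested members were called, against 1.65% of all genes. An unadjusted p under 0.05 was found for 7 of them, against 19.8% of all genes. Among scaffold and chaperone partners, Pdzk1, a PDZ scaffold of the brush border, read 2.21, 2.02 and 0.85 (mean 1.69 ± 0.73, limma, adjusted p = 0.0802) and Slc9a3r1, another such scaffold, 1.55, 0.76 and 0.76 (mean 1.02 ± 0.45, limma, adjusted p = 0.119). The chaperones of lactate carriers, Bsg and Emb, were at -0.11 ± 0.061 and -0.011 ± 0.65. Of 11 tested genes of the amino acid response, the median was 0.039. Its transcription factor Atf4 was at -0.69 ± 0.31 (limma, adjusted p = 0.181), and its target Aars, alanyl-tRNA synthetase, read 1.11, 1.13 and 1.30, a mean of 1.18 ± 0.10 (limma, adjusted p = 0.0574). The wild-type spot of Aars stood well above background on 2 of the 3 arrays. Another target, Asns, was at 0.084 ± 0.87. The 8 lactate and pyruvate metabolism genes had a median of -0.25 and none was higher on all 3 arrays. The 5 tested nutrient carriers of epithelia from other families had a median of 0.29. On all 3 arrays 2 were higher and 1 lower, against 22.4% and 19.1% of all genes. The lower one, Slc15a2, was at -0.59 ± 0.19 and alone of the 5 had an unadjusted limma p under 0.05. The 5 tested vesicular transmitter carriers had a median of -0.18 with Slc17a6, the vesicular glutamate carrier, at -2.32 ± 2.02.

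Promoters of 51 of the 74 carriers, 72 promoters of 300 bases in the RefSeq table of GRCm38.p6, were searched on both strands for 2 sets of letters. The core of the amino acid response element, TGATGNAA, was found in 4 of the 72 (5.56%), in Slc1a4, Slc7a7 and Slc7a11, against 3.97% of all 32851 promoters. The leading 10 letters of an HNF1-type site, a part of the whole site, were found in 0 of the 72, against 0.399% of all promoters.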

How the data were processed

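Total RNA of 3 mutant and 3 wild-type replicates was hybridised to 3 Agilent 2-colour arrays on 1 slide. Per the file headers, the deposited scanner files come from Feature Extraction 10.7.3.1 and hold spot and background intensity and a log10 ratio of red over green. The authors' deposited table holds log2 ratios made with limma, per the submitters' processing notes. Its direction and scale were taken from 9413 bright spots (slopes of 0.91, 0.93 and 0.97 on the scanner ratio), its columns have medians of -0.01, 0.02 and -0.01, and its background step and centring stay unknown.

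Intensities were corrected in R 4.3.3 with limma 3.58.1 by normexp (offset 50). The local background was first limited to 100 units, which touched 25 spots on array 2. Loess followed within arrays, with control spots at weight 0. Outlier and control spots were dropped, and a gene was read by its brightest probe among the 25514 of 39429 that passed the filter on dim probes. Names came from RefSeq accessions for 27228 probes, symbols for 3581 and synonyms for 565, and 8055 kept the file's name; 95 of the 104 carrier probes matched by accession. In limma each gene's ratio was tested against 0, two-sided, with p adjusted by Benjamini-Hochberg over all 19684 genes at 0.05 (4.74 degrees of freedom). This called 325 genes (1.65%). Channel intensities follow loess and Aquantile scaling. The median spot intensity was 192 to 288 in mutant and 150 to 210 in wild-type channels, 66.5% to 74.8% and 64.8% to 76.0% of spots were well above background, and 0 were saturated. The number of arrays limits the precision.

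The members, lists, background limit and rules were chosen with earlier results of these data known. Carriers named by rule are those called, the 4 of smallest p in each family and the tested epithelial and neuronal members; others were named after their values were seen. The values of 2 carriers that the rule names are not reported here, and both stay in the counts and medians. Alternatives changed the background step, normalisation, filter, probe choice, dye term, replicates and source of values.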

Additional observations from a re-analysis of the deposited data

How the results depend on the processing

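The main setting called 2 carriers higher and 1 lower, and 325 genes in all. Counts of higher and lower carriers and of all genes were 0, 0 and 0 with no limit on local background, with no filter on dim probes and with the authors' deposited log ratios. They were 3, 1 and 770 with the scanner's log ratio, 1, 1 and 317 with a filter on both genotypes (Slc3a1 was not tested there), 1, 1 and 260 with the mean of a gene's probes, and 9, 5 and 2532 with a dye term, which fits array 2 exactly. Leaving out 1 replicate gave 0 to 11 higher carriers, 0 to 8 lower carriers and 0 to 5082 genes; the counts of 0 came without replicate 1 or replicate 3, and the highest without replicate 2, where dye and genotype are not separated. Over the alternatives the adjusted p in limma ran from 0.00899 to 0.306 for Slc3a1, from 0.0111 to 0.217 for Slc38a6 and from 0.00899 to 0.299 for Slc6a2. The carrier median of -0.11 was -0.046 with no limit, -0.17 with the scanner's ratio, -0.043 with median centring and -0.082 to -0.020 with 1 replicate left out. The epithelial median was 0.11 with no filter and 0.81 to 1.18 with 1 replicate left out. It was 0.68 with the mean of a gene's probes, 0.76 with the authors' deposited log ratios and 1.20 with the scanner's ratio. With a filter on both genotypes it was 0.98. The neuronal median of -0.037 turned to 0.010 with median centring and to 0.069 with a dye term, and ran from -0.087 to 0.13 with 1 replicate left out. Signs turned for Slc6a9 (0.010 with median centring, 0.069 with a dye term) and Slc7a10 (-0.046 with no limit). With 1 replicate left out they also turned within the ranges of -0.25 to 0.13 for Slc6a9, -0.080 to 0.13 for Slc7a10, -0.37 to 0.038 for Slc1a1, -0.10 to 0.12 for Slc16a12, -0.46 to 0.14 for Slc1a3 and -0.11 to 0.35 for Slc43a3. The cause was not tested. Of the other comparisons of named carriers, 475 kept sign and side of the threshold, 25 newly passed and 16 no longer passed. A fit that also took genes measured on 2 arrays, tried first and replaced after its counts were seen, called the same numbers of carriers and 264 of 20101 genes. The main test of within-array ratios is itself paired by array, so no separate replicate block was fitted.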
